A study of Arabidopsis thaliana with 12 samples.

Results

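The 10 genes described here carry out and control methionine chain elongation, the stage that commits methionine to aliphatic glucosinolates in Arabidopsis thaliana. They are the aminotransferases BCAT4 and BCAT3, the plastid carrier BAT5, the synthases MAM1 and MAM3, the isomerase subunits IIL1, IPMI1 and IPMI2, the dehydrogenase IPMDH1 and the transcription factor MYB28. They were picked by gene ID for their role in the pathway. The rule uses no measured value, but the list was chosen with earlier results of these data known. Coordinates below are those of the RefSeq TAIR10.1 annotation, and the files themselves hold none. All 10 are among the 33602 genes counted in each library and among the 17933 genes that passed the low-count filter.

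The libraries held poly(A) RNA from shoots of wild-type Col-0 seedlings, in 4 groups of 3. Seedlings grown on agar under constant light were moved, at 4 days of age, to new plates for 8 h. These plates held an inhibitor of the active site of TOR, the kinase that ties nutrient and energy supply to growth, or its solvent DMSO (mock). The inhibitors were AZD8055 at 2 µM, KU63794 at 20 µM and TORIN1 at 10 µM, so that compound and dose cannot be told apart between inhibitors. The text on the treatment spells the name of KU63794 with its last digits in another order; the spelling of the sample names is used here. No group carried a TOR mutation or an added gene, and nothing in the labels ties a library to its own plate or culture. The p-values therefore speak only of the scatter among these libraries, which may be technical.

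Aliphatic glucosinolates are sulfur-rich defence compounds of the cabbage family, and chain elongation sets the length of their side chains. BCAT4 removes the amino group of methionine in the cytosol, BAT5 carries the resulting 2-oxo acid into plastids, and a MAM synthase condenses it with acetyl-CoA. The isomerase and IPMDH1 then turn the product into a 2-oxo acid longer by a methylene group, which re-enters the cycle or is aminated by BCAT3. The cycle mirrors leucine synthesis, whose enzymes IPMS, IPMI and IPMDH are close relatives, and MYB28 is a main activator of the aliphatic pathway genes.

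Total counts ran from 7706957 to 14696645 per library, and a count of 0 allowed a level of up to 0.204 to 0.389 CPM (3 counts over the library total, for counting error only). Levels below are CPM, that is, counts scaled to the library total after TMM adjustment. The libraries varied within groups: over the 10 genes, the median of log2 CPM minus the mock mean was 0.31 in KU63794 replicate 2, against 1.12 and 0.92 in replicates 1 and 3, and it was 1.5, 1.14 and 0.82 in AZD8055 replicates 1 to 3. KU63794 replicate 2 was the inhibitor library nearest to mock, and results that turn on it are given with and without it. Markers of leaf mesophyll summed to 42500 to 64200 CPM with AZD8055, 40600 to 43800 with KU63794, 45500 to 67700 with TORIN1 and 42800 to 46500 in mock (6 genes). By edgeR, the leaf genes changed in both directions: GLDP1 rose by 0.77, 0.57 and 0.71 with AZD8055, KU63794 and TORIN1 (adjusted p = 0.000641, 0.00691 and 0.00237), RBCS2B rose by 0.65 with AZD8055 and 0.72 with TORIN1 (0.0164 and 0.014), and LHCB1.1 fell by 0.97 with TORIN1 (0.000295). LHCB1.1 has a single exon, and single-exon genes as a class had low counts in these files, as given below. The RBCS2B calls were lost without mock replicate 1 (0.0628 with AZD8055, 0.0589 with TORIN1), AZD8055 replicate 1 (0.0676) or TORIN1 replicate 3 (0.0759). Of the other cell-type markers, edgeR, DESeq2 and limma voom called none of the 5 vascular and 5 epidermal genes against mock (1 vascular and 0 epidermal genes at an unadjusted edgeR p below 0.05, with AZD8055), while the 7 root genes summed to 7.39 to 8.88, 7.96 to 11 and 2.44 to 6.8 CPM with AZD8055, KU63794 and TORIN1 and to 10.5 to 23.1 in mock. Of these root genes, EXPA7 was at 0 with AZD8055, LRX1 with KU63794 and COBL9, EXPA7 and RSL4 with TORIN1, and the 2 tested, PIN2 and CASP1, were called lower with TORIN1 (-2.01 and -0.81; edgeR adjusted p = 0.0273 and 0.0387). The PIN2 call was lost without mock replicate 1 (0.104) or TORIN1 replicate 2 (0.0816) or 3 (0.0759), and the CASP1 call without mock replicate 1, 2 or 3 (0.121, 0.112 and 0.0529) or TORIN1 replicate 1 (0.0894) or 3 (0.18). The part of cell makeup in the results was not tested, and in whole shoots fewer cells of a type and less RNA per cell cannot be told apart.

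To show where these genes start, the 250 bases before the annotated start of some of them are printed from the RefSeq TAIR10.1 sequence, 5′ to 3′ along the strand of the gene. Capitals mark 2 kinds of short motif searched on both strands: the AC elements, searched as ACCTACC, as its variant ACCAACC and as the further variant ACCTAAC, which R2R3-MYB proteins such as MYB28 are known to bind, and the G-box CACGTG of basic helix-loop-helix factors. An AC element stood in 4 of the 10 windows, those of IPMI1, IPMI2, IIL1 and BAT5, and in 6.12% of the 27443 windows of protein-coding genes. The G-box stood in 1 of the 10, that of IIL1, and in 6.49% of all windows. The MAM1 window is shown beside them because MAM1 has neither motif. A match describes letters only and is not a site of binding.
BAT5 promoter, chr4:7210557-7210806, plus strand: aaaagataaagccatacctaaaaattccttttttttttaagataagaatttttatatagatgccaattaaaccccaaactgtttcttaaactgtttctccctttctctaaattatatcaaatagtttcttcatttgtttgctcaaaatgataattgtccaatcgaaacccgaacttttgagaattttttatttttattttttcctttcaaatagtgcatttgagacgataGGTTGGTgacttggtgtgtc
IIL1 promoter, chr4:7807985-7808234, minus strand: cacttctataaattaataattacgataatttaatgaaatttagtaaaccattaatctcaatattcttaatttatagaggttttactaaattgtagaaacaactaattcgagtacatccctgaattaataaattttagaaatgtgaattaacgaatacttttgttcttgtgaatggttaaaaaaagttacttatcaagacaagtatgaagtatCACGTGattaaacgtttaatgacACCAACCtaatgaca
IPMI1 promoter, chr3:21798304-21798553, minus strand: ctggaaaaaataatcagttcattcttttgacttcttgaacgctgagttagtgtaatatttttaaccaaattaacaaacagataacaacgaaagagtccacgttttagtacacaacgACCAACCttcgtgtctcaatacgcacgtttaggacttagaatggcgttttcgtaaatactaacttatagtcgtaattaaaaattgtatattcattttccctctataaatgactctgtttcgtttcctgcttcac
IPMI2 promoter, chr2:17920397-17920646, plus strand: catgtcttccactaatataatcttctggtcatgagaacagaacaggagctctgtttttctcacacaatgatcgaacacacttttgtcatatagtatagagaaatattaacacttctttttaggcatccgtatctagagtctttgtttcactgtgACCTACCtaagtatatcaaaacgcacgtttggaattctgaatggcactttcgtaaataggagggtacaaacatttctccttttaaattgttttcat
MAM1 promoter, chr5:7702791-7703040, plus strand: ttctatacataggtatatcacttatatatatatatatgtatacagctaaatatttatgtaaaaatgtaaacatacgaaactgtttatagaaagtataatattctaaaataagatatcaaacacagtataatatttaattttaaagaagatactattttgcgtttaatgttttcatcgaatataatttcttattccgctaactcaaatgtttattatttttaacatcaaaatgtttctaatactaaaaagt

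Against mock, most of the pathway genes rose with AZD8055 and TORIN1 and fewer passed with KU63794, and none of the 10 was called lower in any comparison (16.1% of all genes with AZD8055, 14.3% with KU63794 and 10.3% with TORIN1). Under AZD8055, 8 of the 10 genes rose (edgeR adjusted p below 0.05), where 14.4% of all genes tested were called higher. The count was 3 of 10 for KU63794 (11.1% of all genes) and 7 of 10 for TORIN1 (9.87%). BCAT4, MAM3 and IPMDH1 rose with all 3 inhibitors, 3 of the 10 against 6.2% of all genes. The median log2 fold change over the 10 genes was 1.22 with AZD8055, 0.88 with KU63794 and 0.75 with TORIN1, against 0, 0.01 and -0.01 over all genes tested. Set directly against KU63794, TORIN1 was lower for IPMI1 (-0.53) and IPMI2 (-0.62), which have few counts, and neither difference passed. All other genes were higher under TORIN1, from 0.09 for BCAT4 to 0.43 for BCAT3. The order of the KU63794 and TORIN1 medians thus rests on IPMI1 and IPMI2. Without KU63794 replicate 2, BCAT4, MAM1, IPMDH1 and MYB28 were lower under TORIN1 too. The 3 comparisons against mock share their mock libraries, so they are not independent of each other.

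The 3 inhibitor libraries lay above the 3 mock libraries without overlap for 9 of the 10 genes with AZD8055 (20.7% of all genes), 5 with KU63794 (20.7%) and 8 with TORIN1 (20.5%). The 3 inhibitor groups thus differed in how many of the genes passed, but a call with one compound and not with another is no test of their difference, which is given further on. The count of genes called higher with TORIN1 was 4 without mock replicate 1 or 2 or TORIN1 replicate 2 or 3, and with AZD8055 and KU63794 it was 6 to 8 and 2 to 4 over all libraries left out in turn. At an unadjusted p below 0.05, 9, 5 and 7 genes were higher and 0 were lower with AZD8055, KU63794 and TORIN1. DESeq2 called 9, 4 and 7 higher, limma voom 8, 4 and 7, and neither called any lower. The shares of all genes given above are those of the adjusted edgeR calls. No such share was counted for the unadjusted, DESeq2 and limma voom counts, and it is larger at an unadjusted p.

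**Figure D1:**
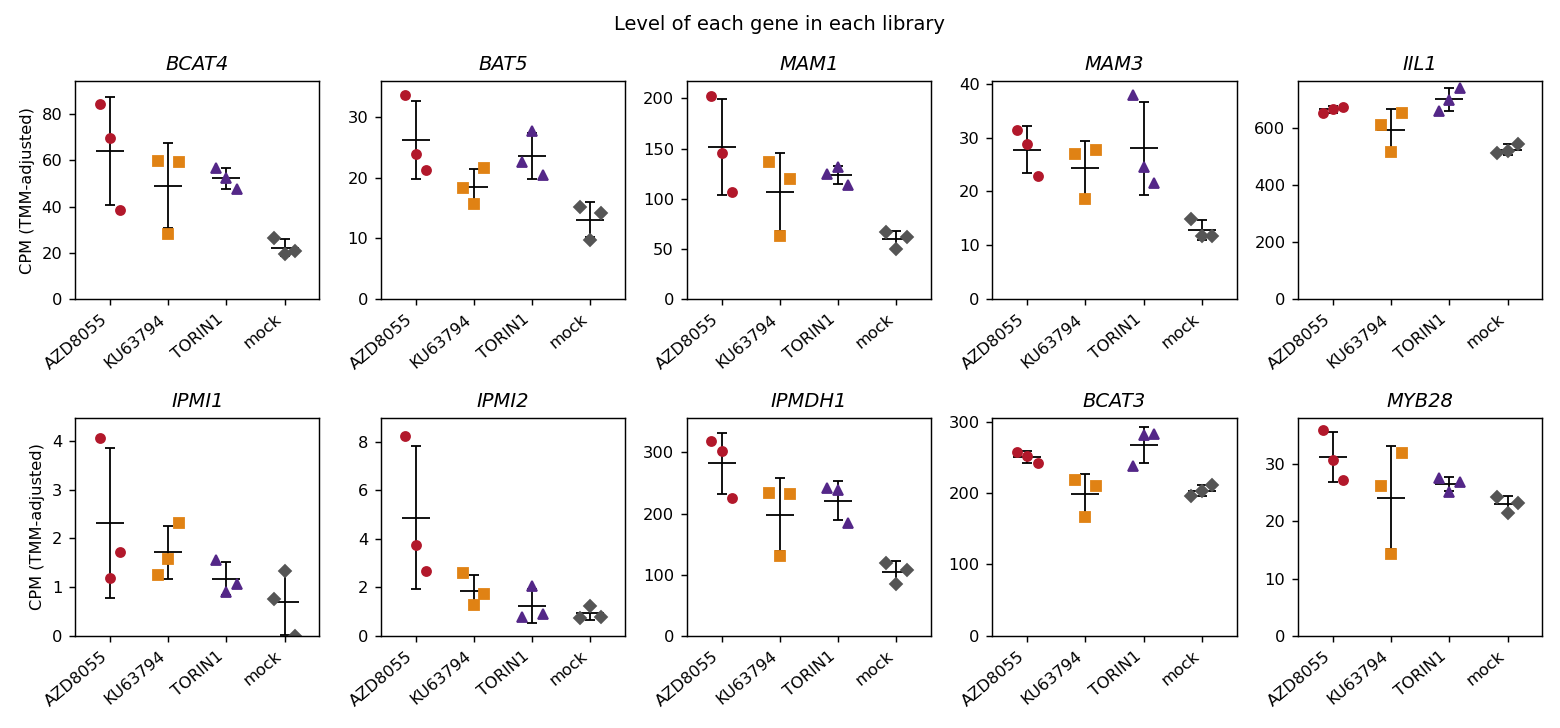
Level of each of the 10 genes in CPM (linear axes from 0) in each of the 12 libraries, with one panel per gene and the groups AZD8055, KU63794, TORIN1 and mock from left to right. Symbols are libraries and bars are the mean and SD of 3; BCAT4, BAT5, MAM3 and IPMDH1 lie above mock in all 9 inhibitor libraries, while MYB28 in KU63794 replicate 2 lies below mock.

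Both genes that bring methionine into the plastid cycle rose with AZD8055 and TORIN1, and BCAT4 with KU63794 as well. BCAT4 (AT3G19710, chr3:6846969-6849582, minus strand) had 84.1, 69.6 and 38.6 CPM in AZD8055 libraries, 59.7, 28 and 59.4 in KU63794 libraries and 56.6, 52.4 and 47.5 in TORIN1 libraries, against 26.5, 19.5 and 20.8 in mock. Every inhibitor library was above every mock library, though KU63794 replicate 2 only narrowly. BCAT4 rose by 1.51 on the log2 scale with AZD8055 (SE 0.34; edgeR adjusted p = 0.00715), by 1.13 with KU63794 (SE 0.34; 0.0331) and by 1.22 with TORIN1 (SE 0.34; 0.0297). The KU63794 call was lost without any 1 library other than KU63794 replicate 2 (adjusted p 0.0519 to 0.102), and the TORIN1 call without any 1 of its 6 libraries (0.0518 to 0.096), while the log2 changes stayed between 0.96 and 1.41. On the opposite strand, BCAT4 overlaps AT3G19700 by 307 bases, and the strand of counting is not given in the sources used here. AT3G19700 had 6 to 23 CPM over the libraries (no TMM adjustment, decimals dropped), against 19.5 to 26.5 CPM for BCAT4 in mock. The part of this overlap in the BCAT4 values was not tested.

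BAT5 (AT4G12030, chr4:7210807-7213376, plus strand), the bile acid:sodium symporter family protein of the plastid envelope, had 33.5, 23.8 and 21.3 CPM in AZD8055 libraries, 18.3, 15.7 and 21.5 in KU63794 libraries and 22.5, 27.7 and 20.4 in TORIN1 libraries, against 15.2, 9.79 and 14.2 in mock. No inhibitor library overlapped the mock range. BAT5 rose by 1.00 on the log2 scale with AZD8055 (SE 0.2; edgeR adjusted p = 0.00197) and by 0.84 with TORIN1 (SE 0.2; 0.0101). With KU63794 the difference was 0.49 (95% interval 0.06 to 0.93) and did not pass (0.093).

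The condensing enzymes rose with AZD8055 and TORIN1, and MAM3 with KU63794 as well. MAM1 (AT5G23010, chr5:7703041-7706973, plus strand), whose product is known to catalyse the early rounds of elongation, had 202, 146 and 107 CPM in AZD8055 libraries, 137, 63 and 120 in KU63794 libraries and 125, 132 and 114 in TORIN1 libraries, against 67.3, 50.3 and 61.5 in mock. All AZD8055 and TORIN1 libraries were above mock, and KU63794 replicate 2 lay inside the mock range. MAM1 rose by 1.35 on the log2 scale with AZD8055 (SE 0.29; edgeR adjusted p = 0.00604) and by 1.05 with TORIN1 (SE 0.29; 0.0294). With KU63794 it differed by 0.84 (95% interval 0.19 to 1.48; 0.0601), and by 1.11 without KU63794 replicate 2 (0.00348). This difference passed with DESeq2 (0.0271) and limma voom (0.0453). The TORIN1 call was lost without any 1 of its 6 libraries (adjusted p 0.0575 to 0.0953), with log2 changes of 0.94 to 1.15.

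MAM3 (AT5G23020, chr5:7718118-7721866, plus strand), the neighbouring relative that accepts a wider range of chain lengths, had 31.4, 28.8 and 22.9 CPM in AZD8055 libraries, 26.9, 18.6 and 27.6 in KU63794 libraries and 37.8, 24.6 and 21.5 in TORIN1 libraries, against 14.9, 11.8 and 11.7 in mock. Every inhibitor library was above every mock library. It rose by 1.1 (log2) under AZD8055 (SE 0.22; edgeR adjusted p = 0.00207), 0.92 with KU63794 (SE 0.22; 0.00796) and 1.11 with TORIN1 (SE 0.22; 0.00354), and these calls held without any 1 library. MAM1 made up 84.2% ± 2.11 of the counts of the pair with AZD8055, 80.7% ± 3.24 with KU63794, 81.8% ± 4.3 with TORIN1 and 82.3% ± 1.54 in mock (SD, n = 3 each). The ranges of this share overlapped between all groups. The genes share no stretch of 50 bases in their transcripts, and with their counts summed the pair rose by 1.31, 0.85 and 1.06 with AZD8055, KU63794 and TORIN1 (edgeR adjusted p = 0.00365, 0.0359 and 0.017).

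The isomerase is built of a large subunit, IIL1, which also serves leucine synthesis, and small subunits, among them IPMI1 and IPMI2. IIL1 (AT4G13430, chr4:7803863-7807984, minus strand) had 652, 667 and 673 CPM in AZD8055 libraries, 611, 514 and 653 in KU63794 libraries and 659, 698 and 740 in TORIN1 libraries, against 510, 517 and 544 in mock. All libraries with AZD8055 and TORIN1 were above mock, and KU63794 replicate 2 lay within the mock range. IIL1 rose by 0.34 (log2) under AZD8055 (SE 0.1; edgeR adjusted p = 0.0201) and 0.42 with TORIN1 (SE 0.1; 0.0105), and differed by 0.18 with KU63794 (95% interval -0.04 to 0.4; 0.228). The AZD8055 call was lost without mock replicate 1 (0.0726) or 2 (0.063).

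The small-subunit genes were counted at levels near the limit of detection. IPMI2 (AT2G43100, chr2:17920647-17921844, plus strand) had 95, 38 and 31 counts in AZD8055 libraries, 33, 16 and 21 in KU63794 libraries and 8, 18 and 12 in TORIN1 libraries, against 11, 13 and 6 in mock. Scaled, these were 2.66 to 8.23 CPM with AZD8055, 1.26 to 2.58 with KU63794, 0.777 to 2.04 with TORIN1 and 0.752 to 1.24 in mock. The AZD8055 libraries stood above all others, KU63794 libraries just above mock, and TORIN1 libraries overlapped mock. IPMI2 rose by 2.40 on the log2 scale with AZD8055 (SE 0.48; edgeR adjusted p = 0.00175), and by 1.78 without AZD8055 replicate 1 (0.009). With KU63794 it differed by 1.01 (95% interval -0.08 to 2.09; 0.17) and with TORIN1 by 0.39 (-0.77 to 1.55; 0.675).

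IPMI1 (AT3G58990, chr3:21797058-21798303, minus strand) had 47, 12 and 20 counts in AZD8055 libraries, 16, 20 and 28 in KU63794 libraries and 16, 8 and 14 in TORIN1 libraries, against 11, 14 and 0 in mock. These groups overlapped mock in every comparison. The log2 differences were 1.65 with AZD8055 (95% interval 0.28 to 3.02; edgeR adjusted p = 0.0663), 1.20 with KU63794 (-0.19 to 2.59; 0.202) and 0.67 with TORIN1 (-0.8 to 2.13; 0.549). The AZD8055 difference passed without AZD8055 replicate 2 (1.95; 0.0408) or mock replicate 2 (2.34; 0.0405), and with DESeq2 (0.0332). Both genes have a single exon, and single-exon genes had low counts throughout these files: 12 of 5059 such protein-coding genes (0.237%) reached a mean of 100 CPM, against 1820 of 21653 genes with more exons (8.41%). Levels of IPMI1 and IPMI2 are therefore not set against those of the other genes, and the part of the counting method was not tested.

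IPMDH1 (AT5G14200, chr5:4576123-4578402, plus strand), which decarboxylates and oxidises the isomerised acid, was higher with every inhibitor. It had 319, 302 and 225 CPM in AZD8055 libraries, 233, 130 and 232 in KU63794 libraries and 242, 238 and 184 in TORIN1 libraries, against 120, 85.3 and 108 in mock. All 9 inhibitor libraries were above the mock range, KU63794 replicate 2 by the least. IPMDH1 rose by 1.43 (log2) under AZD8055 (SE 0.22; edgeR adjusted p = 0.000501), 0.92 with KU63794 (SE 0.22; 0.00936) and 1.08 with TORIN1 (SE 0.22; 0.00531), and each call held without any 1 library. It shares 103 of its 1755 windows of 50 bases (5.87%) with IPMDH3, whose level moved the other way, and overlaps AT5G14210 on the opposite strand by 25 bases. None of the other 9 genes shared a 50-base window with the 31 related genes compared.

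BCAT3 (AT3G49680, chr3:18422542-18425758, plus strand), the plastid aminotransferase that ends elongation and also serves leucine, isoleucine and valine synthesis, had 258, 252 and 242 CPM in AZD8055 libraries, 218, 166 and 210 in KU63794 libraries and 238, 281 and 283 in TORIN1 libraries, against 196, 203 and 211 in mock. AZD8055 and TORIN1 libraries were all above mock, and KU63794 libraries lay on both sides of it. BCAT3 rose by 0.30 (log2) under AZD8055 (SE 0.11; edgeR adjusted p = 0.0478) and 0.40 with TORIN1 (SE 0.11; 0.0195), and differed by -0.04 with KU63794 (95% interval -0.27 to 0.19; 0.841). The AZD8055 call was lost without any 1 of its 6 libraries (adjusted p 0.0629 to 0.144), and the TORIN1 call without mock replicate 1 (0.0768) or 2 (0.0598) or TORIN1 replicate 2 (0.0781) or 3 (0.076). Its change was smaller than that of BCAT4, which sits at the start of the pathway, and the difference between the 2 genes was not tested.

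MYB28 (AT5G61420, chr5:24689069-24691187, minus strand), the activator, had 35.9, 30.7 and 27.2 CPM in AZD8055 libraries, 26.1, 14.3 and 31.9 in KU63794 libraries and 27.5, 25.1 and 26.9 in TORIN1 libraries, against 24.3, 21.4 and 23.1 in mock. AZD8055 and TORIN1 libraries were all above mock by a small margin, and KU63794 libraries spread from below to above it. No difference passed: 0.45 with AZD8055 (95% interval -0.02 to 0.91; edgeR adjusted p = 0.139), 0.07 with KU63794 (-0.4 to 0.54; 0.857) and 0.21 with TORIN1 (-0.26 to 0.68; 0.554). The AZD8055 difference passed when only the 2 groups were fitted (0.0235).

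**Figure D2:**
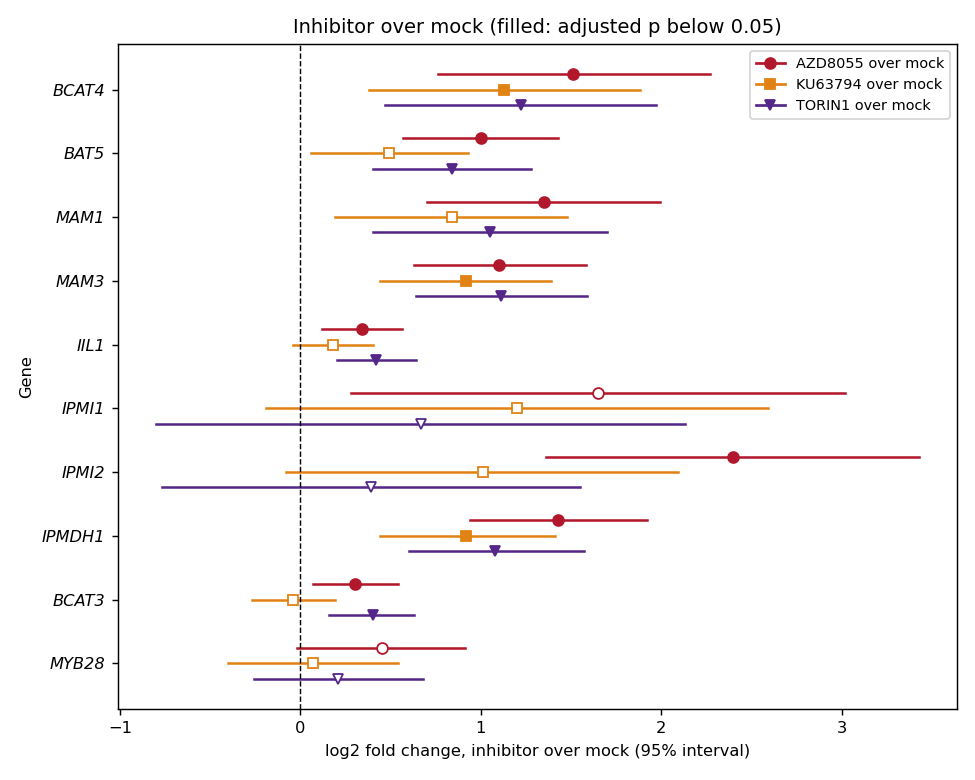
Log2 fold change of each inhibitor over mock (x axis) for the 10 genes (y axis), with the 95% interval of the edgeR fit; filled symbols passed at an adjusted p below 0.05. BCAT4, MAM3 and IPMDH1 are filled for all 3 inhibitors, while IPMI1 and MYB28 are open for all 3.

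Per kilobase of exon, the order of levels in mock was IIL1 (255 ± 8.73 CPM per kb), BCAT3 (116 ± 4.28), IPMDH1 (61.2 ± 10.3), MAM1 (29.1 ± 4.21), BCAT4 (15.3 ± 2.57), MYB28 (11.6 ± 0.736), MAM3 (7 ± 0.995) and BAT5 (5.91 ± 1.3; SD, n = 3 each), leaving out the single-exon IPMI1 and IPMI2. Ranges of neighbours overlapped in mock for MAM3 and BAT5 and for no other neighbouring pair. With AZD8055 the order of the first genes was IIL1 (323 ± 5.26), IPMDH1 (165 ± 29.4), BCAT3 (143 ± 4.61), MAM1 (73.9 ± 23.3) and BCAT4 (44.2 ± 16), and the ranges of IPMDH1 and BCAT3 overlapped, as did those of MAM1 and BCAT4. IPMDH1 also came close to BCAT3 with KU63794 (116 ± 34.7 against 113 ± 16) and TORIN1 (130 ± 19 against 153 ± 14.5), with overlapping ranges in both. The order in mock thus placed IIL1 and BCAT3 first, which both also serve branched-chain amino acid synthesis. With the inhibitors the range of IPMDH1 overlapped that of BCAT3.

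**Figure D3:**
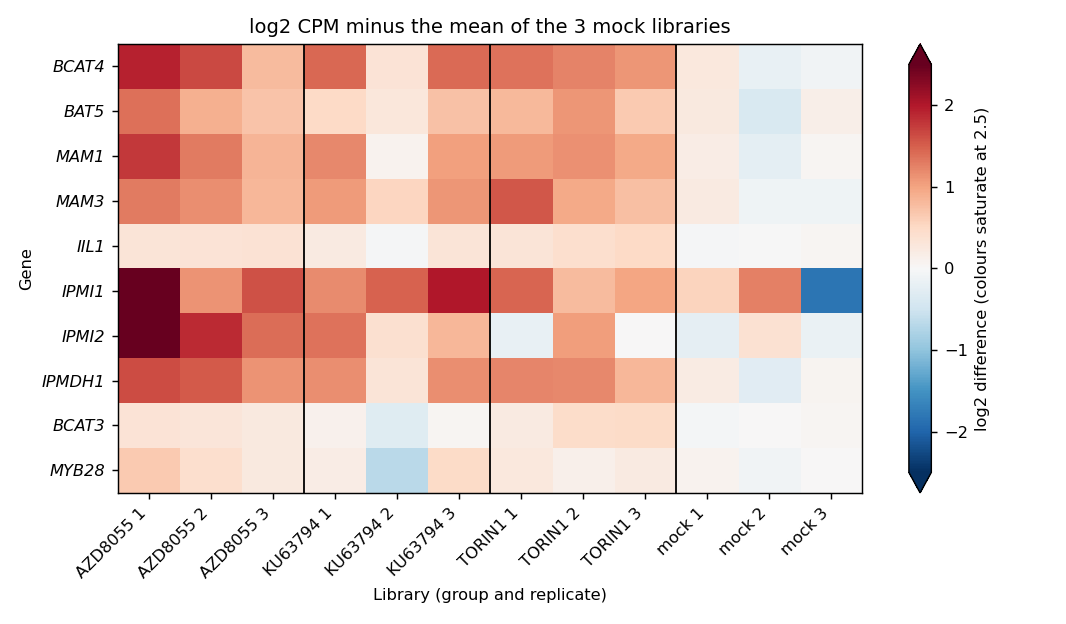
Colour gives log2 CPM minus the mean of the 3 mock libraries for each gene (rows) in each library (columns, AZD8055, KU63794, TORIN1, then mock), with colours saturating at 2.5. KU63794 replicate 2 is paler than its group (median over the genes 0.31), and AZD8055 replicate 1 is the strongest (1.5).

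The spread within groups showed the same libraries high or low for many of the genes. In AZD8055 replicate 1, 10 of the 10 genes were above all mock libraries, and in KU63794 replicate 2, 6 were. The share of all genes above mock in a single library was not counted, so these counts have no base rate beside them. The sum of the 10 genes was 1628, 1525 and 1362 CPM in AZD8055 replicates 1 to 3, 1334, 951.8 and 1359 with KU63794 and 1410, 1482 and 1440 with TORIN1, against 975, 921.3 and 994.8 in mock. AZD8055 and TORIN1 sums were above mock in every library, and KU63794 replicate 2 was within the mock range. Without that library BCAT4, MAM1, MAM3 and IPMDH1 rose with KU63794, by 1.41, 1.11, 1.08 and 1.15 (edgeR adjusted p = 0.00331, 0.00348, 0.00342 and 0.000334).

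Outside the 10 genes, those with the profile nearest to the median of the 10 over the 12 libraries were sought among 16886 genes, by the root mean square difference of centred log2 CPM. The nearest were SK13 (AT5G14640), at 0.108, AT1G21440, at 0.119, AT4G26795, at 0.128, GSTU20 (AT1G78370), at 0.137, and AKN2 (AT4G39940), at 0.14. Of the 10 genes themselves, MAM1 was nearest to their median, at 0.175, and IPMI1 farthest, at 0.808. AKN2 had log2 differences of 1.36, 0.84 and 1.04 and SK13 of 1.01, 0.78 and 0.81 with AZD8055, KU63794 and TORIN1.

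Between inhibitors, few of the genes differed, and doses differed with the compounds. Over the tests of 10 genes in 3 pairs, with p-values adjusted over all genes of each pair, 2 passed. None of the 10 genes was called between AZD8055 and KU63794 by edgeR, DESeq2 or limma voom (0.00558% of all genes were called higher by edgeR). At an unadjusted edgeR p below 0.05, 4 of the 10 were higher with AZD8055, and the share of all genes at that level was not counted. None was lower by any of these tools or at an unadjusted p below 0.05 (0% of all genes were called lower by edgeR at an adjusted p below 0.05). The log2 differences of AZD8055 over KU63794 ran from 0.16 for IIL1 to 1.39 for IPMI2, and from 0.02 to 1.17 without KU63794 replicate 2. With all libraries, 10 of 10 were above 0, against 9104 of the 17933 genes tested. For BCAT4 the difference was 0.39 (95% interval -0.33 to 1.1), for MAM1 0.51 (-0.12 to 1.14) and for IPMDH1 0.51 (0.03 to 0.98), and the 2 groups did not overlap for 2 of the 10 genes, IPMI2 and BCAT3 (5.64% of all genes).

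Between AZD8055 and TORIN1, IPMI2 was the 1 gene of 10 called higher (0.496% of all genes): 8.23, 3.75 and 2.66 CPM with AZD8055 were all above 0.777, 2.04 and 0.915 CPM with TORIN1, by 2.01 on the log2 scale (SE 0.47; edgeR adjusted p = 0.044). The call was lost without AZD8055 replicate 1 (1.39; 0.13) or TORIN1 replicate 1 (1.78; 0.112), 2 (2.51; 0.0862) or 3 (1.81; 0.182), and when IPMI1 and IPMI2 were summed (1.59; 0.0667). The other 9 genes had differences of -0.09 for BCAT3 to 0.98 for IPMI1, among them 0.30 for BCAT4 (95% interval -0.42 to 1.01), -0.01 for MAM3 (-0.46 to 0.44) and 0.35 for IPMDH1 (-0.13 to 0.83), and none was lower by edgeR, DESeq2, limma voom or an unadjusted p below 0.05 (1.3% of all genes were called lower). Groups did not overlap for 1 of the 10 genes, IPMI2 (7.99% of all genes).

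Between TORIN1 and KU63794, BCAT3 was the 1 gene of 10 called higher (2.21% of all genes): 238, 281 and 283 CPM with TORIN1 were all above 218, 166 and 210 CPM with KU63794, by 0.43 (SE 0.11; edgeR adjusted p = 0.0486). The call was lost without KU63794 replicate 1 (0.0542), 2 (0.203) or 3 (0.0642) or TORIN1 replicate 2 (0.18) or 3 (0.191), and with DESeq2 size factors (0.0619). Groups did not overlap for 2 genes, BCAT3 and IIL1 (15.7% of all genes). The other genes had differences of -0.62 for IPMI2 to 0.35 for BAT5, with 0.09 for BCAT4 (95% interval -0.63 to 0.81) and 0.16 for IPMDH1 (-0.32 to 0.63). Only IPMI1 (-0.53) and IPMI2 were below 0, and 9160 of the 17933 genes tested were above 0. None of the 10 was lower by the same tools or at an unadjusted p below 0.05 (0.602% of all genes were called lower by edgeR).

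**Figure D4:**
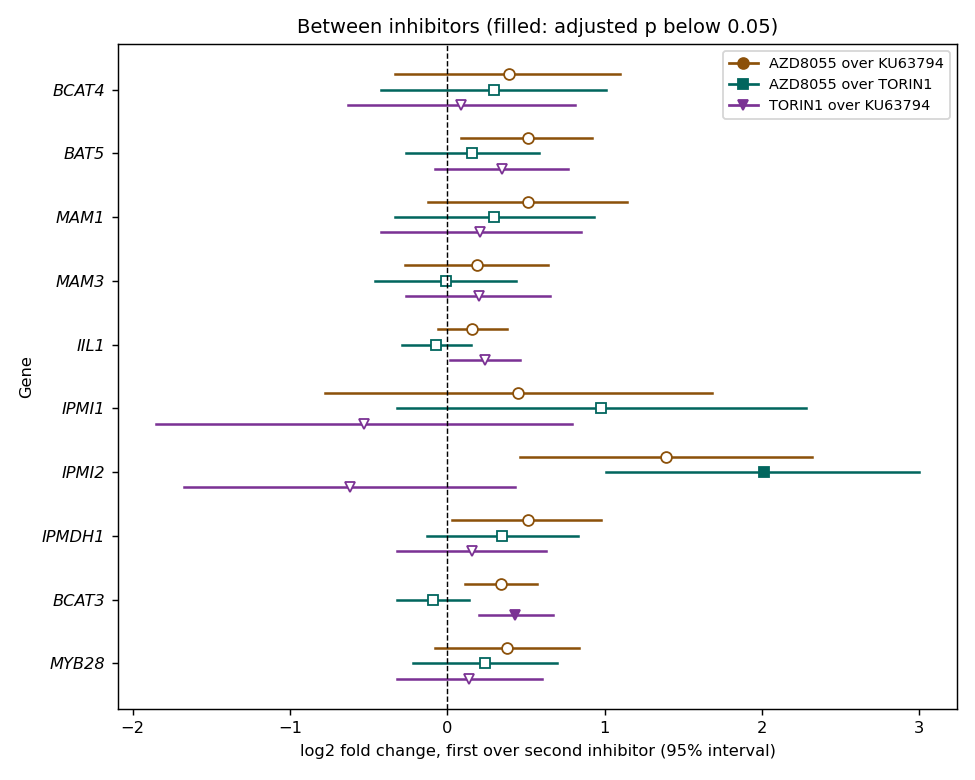
Log2 fold change of the first over the second inhibitor of each pair (x axis) for the 10 genes (y axis), with 95% intervals of the edgeR fit; filled symbols passed at an adjusted p below 0.05. Only IPMI2 for AZD8055 over TORIN1 and BCAT3 for TORIN1 over KU63794 are filled, and most intervals include 0.

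Many genes that act after chain elongation also rose. Of 17 tested genes for the core structure and side chain of aliphatic glucosinolates, 14 were called higher under AZD8055 (14.4% of all genes), 8 under KU63794 (11.1%) and 11 under TORIN1 (9.87%), 8 of them under all 3 (6.2%). None was lower by edgeR, DESeq2, limma voom or an unadjusted p below 0.05 with all libraries, while FMO-GSOX4, another side-chain oxygenase, was called lower with TORIN1 without TORIN1 replicate 1 (-0.62; 0.00433), against -0.21 with it (0.548). The median log2 difference of the list was 1.1, 0.68 and 0.87, against 0, 0.01 and -0.01 over all genes. The AZD8055 count was 10 to 13 with 1 library left out. The KU63794 count was 13 without KU63794 replicate 2, 5 without replicate 1, 4 without replicate 3 and 4 without mock replicate 2, and the TORIN1 count was 7 without mock replicate 2. CYP83A1 (AT4G13770), which oxidises aliphatic aldoximes, rose by 1.79, 1.00 and 1.14 with AZD8055, KU63794 and TORIN1 (SE 0.23 each; edgeR adjusted p = 6.96e-05, 0.00588 and 0.0039). FMO-GSOX2 (AT1G62540), which oxygenates the side chain, rose by 1.73, 1.31 and 1.53 (SE 0.24 each; 9.22e-05, 0.00109 and 0.000717).

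CYP79F2 (AT1G16400), the first enzyme to act on the elongated amino acids, had 11.9 ± 2.33 CPM with AZD8055, 8.9 ± 0.932 with KU63794 and 10 ± 2.07 with TORIN1, against 4.88 ± 1.79 in mock (SD, n = 3 each), and rose by 1.29, 0.87 and 1.04 (SE 0.25 each; edgeR adjusted p = 0.00126, 0.0189 and 0.00974). The KU63794 call was lost without mock replicate 2 (0.0807) or KU63794 replicate 3 (0.0646). Its neighbour and relative CYP79F1 (AT1G16410) rose by 1.25 (log2) under AZD8055 (SE 0.36; 0.0217), a call lost without mock replicate 1, 2 or 3 (0.07, 0.0547 and 0.0639) or AZD8055 replicate 1 (0.0665) or 2 (0.066). With KU63794 and TORIN1, CYP79F1 differed by 0.61 and 0.74 (0.257 and 0.187), and the KU63794 difference passed without KU63794 replicate 2 (0.92; 0.0335). The TORIN1 libraries did not overlap mock for CYP79F1, and that difference passed when only the 2 groups were fitted (0.00187). FMO-GSOX1 (AT1G65860) rose by 1.42, 0.91 and 0.87 (SE 0.26 each; 0.000811, 0.0186 and 0.0311). Its KU63794 call was lost without mock replicate 1 (0.0908) or 2 (0.0771) or KU63794 replicate 1 (0.0809) or 3 (0.0632), and its TORIN1 call without mock replicate 1 (0.131) or 2 (0.115) or any of the TORIN1 libraries (0.0507 to 0.0949).

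Of 7 other regulators tested, 1 was called higher and 1 lower with AZD8055, 1 lower with KU63794 and 0 with TORIN1 (0 by DESeq2 and limma voom). Of all genes, 14.4% were called higher and 16.1% lower with AZD8055 and 14.3% lower with KU63794. Against mock, the counts of regulators were thus near the shares of all genes. Limma voom called 2 higher with AZD8055, and DESeq2 called 0 lower with KU63794. MYB29 (AT5G07690), which acts beside MYB28, had 5.15 ± 1.28, 3.24 ± 1.48 and 3.9 ± 0.484 CPM with AZD8055, KU63794 and TORIN1 and 3.07 ± 0.363 in mock, and differed by 0.73, 0.06 and 0.33 (edgeR adjusted p = 0.0896, 0.919 and 0.525). MYB76 (AT5G07700), another activator, was below 1 CPM in every library and was not tested. SDI1 (AT5G48850) and SDI2 (AT1G04770) are sulfur-deficiency-induced proteins, and SDI1 is known to restrain MYB28. SDI2 fell by 0.93 with AZD8055 (SE 0.15; 0.000348) and by 0.44 with KU63794 (SE 0.15; 0.039) and differed by -0.26 with TORIN1 (0.239). Without any 1 library other than mock replicate 2, the KU63794 call of SDI2 was lost (0.0711 to 0.137), as it was with DESeq2 (0.0555).

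Against mock, SDI1 differed by -0.71 with AZD8055, 0.40 with KU63794 and 0.74 with TORIN1 (edgeR adjusted p = 0.116, 0.366 and 0.0995), and the TORIN1 difference passed without TORIN1 replicate 2 (1.02; 0.0155). With AZD8055 over TORIN1, SDI1 (-1.45, SE 0.31; 0.0396) and SDI2 (-0.67, SE 0.15; 0.0433) were called lower. These were 2 of the 7 regulators (1.3% of all genes), 2 by DESeq2 and 0 by limma voom. No regulator was called by edgeR between AZD8055 and KU63794 or between TORIN1 and KU63794. Of the 7 regulators tested, MYC3 was the 1 called higher, with AZD8055 (0.84, SE 0.23; 0.0119), a call lost without mock replicate 3 (0.66; 0.0516). Like MYC2 and MYC4, MYC3 has a single exon and belongs to the class with low counts in these files. MYC2, MYC4 and SLIM1, the others tested, differed by 0.38, 0.99 and 0.48 with AZD8055 (0.399, 0.0858 and 0.0555). Of the 7, 4 lay without overlap above mock with AZD8055, among them MYC4 and SLIM1 but not MYC2 (20.7% of all genes). At an unadjusted p below 0.05, 4, 1 and 1 of the 7 were higher with AZD8055, KU63794 and TORIN1, and 2, 1 and 0 lower. The share of all genes at that level was not counted.

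The leucine-synthesis counterparts of these enzymes did not rise against mock. Of 5 tested, none was called higher than in mock. The number that fell was 3 under AZD8055, 3 under KU63794 and 2 under TORIN1, where 16.1%, 14.3% and 10.3% of all genes were called lower. IPMDH2 (AT1G80560) had 49.8, 52.1 and 55.2 CPM in AZD8055 libraries, 54.9, 46.8 and 49.7 in KU63794 libraries and 59.8, 63.8 and 73.3 in TORIN1 libraries, against 81.4, 86.9 and 90.3 in mock. All its inhibitor libraries were below mock, and it fell by 0.72, 0.77 and 0.39 with AZD8055, KU63794 and TORIN1 (SE 0.1 each; edgeR adjusted p = 7e-05, 4.74e-05 and 0.0101). IPMDH3 (AT1G31180) had 63.3, 61.2 and 56.1 CPM in AZD8055 libraries, 58.9, 46.3 and 53.4 in KU63794 libraries and 69.1, 81.8 and 74.3 in TORIN1 libraries, against 105, 105 and 112 in mock. It fell by 0.84, 1.03 and 0.52 (SE 0.1 each; 2.5e-05, 7.29e-06 and 0.0021). None of the 5 was higher than in mock at an unadjusted p below 0.05 or with DESeq2 or limma voom. With TORIN1 over KU63794, 3 of the 5 were called higher by edgeR (2.21% of all genes), 3 by DESeq2 and 2 by limma voom. The edgeR calls were the synthase gene IPMS2 (0.46; adjusted p = 0.0288), IPMDH2 (0.38; 0.0499) and IPMDH3 (0.50; 0.0262).

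Within the family of 3 dehydrogenases, IPMDH1 took up 72.3%, 71.1% and 65.1% of the summed counts per base in AZD8055 libraries, 65.4%, 56.2% and 67.5% in KU63794 libraries and 63.4%, 60.3% and 53.5% in TORIN1 libraries, against 37.4%, 29.2% and 33.1% in mock. This share, which was chosen after the values were seen and carries no test, was more than that of the other 2 genes together in every inhibitor library and less in every mock library. Of the leucine synthases, IPMS2 (AT1G74040) fell by 0.33 with AZD8055 (SE 0.09; edgeR adjusted p = 0.0167) and 0.59 with KU63794 (SE 0.09; 0.000354) and differed by -0.14 with TORIN1 (0.35). The AZD8055 call of IPMS2 was lost without mock replicate 2 (0.0711) or 3 (0.0553) or AZD8055 replicate 2 (0.0557). IPMS1 (AT1G18500) differed by -0.18, -0.09 and -0.05 (0.182, 0.573 and 0.793). MAM1 and MAM3 together took up 54.9% ± 9.08 of the counts per base of the 4 synthase genes with AZD8055, 47.5% ± 10.2 with KU63794 and 48.8% ± 4.62 with TORIN1, against 30% ± 3.98 in mock (SD, n = 3 each), a share also chosen after its values were seen.

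**Figure D5:**
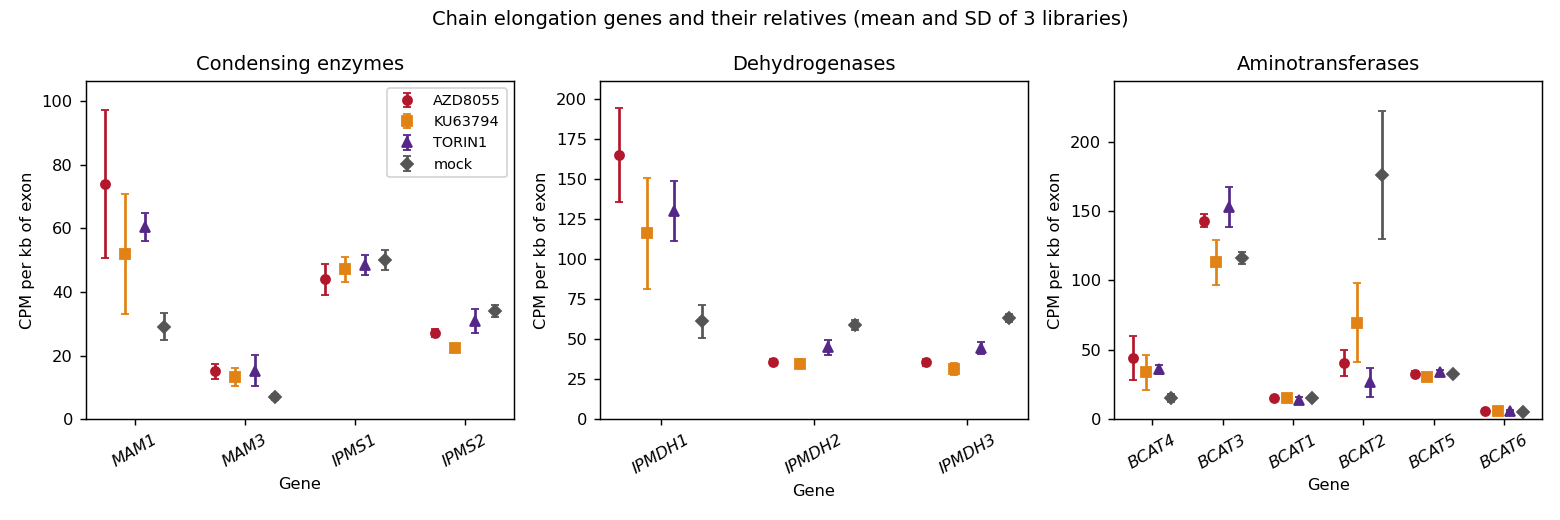
Mean level in CPM per kb of exon (linear axes from 0; bars are the SD of 3 libraries) of the chain-elongation genes beside their relatives: synthases, dehydrogenases and branched-chain aminotransferases. IPMDH1 is higher with each inhibitor (165, 116 and 130 with AZD8055, KU63794 and TORIN1) than in mock (61.2), while IPMDH2 and IPMDH3 are lower; BCAT2 is lower and BCAT4 higher.

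Of the other branched-chain aminotransferases, BCAT2 (AT1G10070), tied to the breakdown of branched-chain amino acids, was the 1 of 4 called against mock. Of all genes, 16.1%, 14.3% and 10.3% were called lower with AZD8055, KU63794 and TORIN1. BCAT2 had 53.1, 73.2 and 85.8 CPM in AZD8055 libraries, 108, 177 and 79.8 in KU63794 libraries and 66.8, 41.3 and 31.2 in TORIN1 libraries, against 264, 401 and 259 in mock. All its inhibitor libraries were below mock, opposite to BCAT4, and it fell by 2.12, 1.34 and 2.73 with AZD8055, KU63794 and TORIN1 (edgeR adjusted p = 0.00219, 0.023 and 0.00132). The KU63794 call was lost without mock replicate 2 (0.0823) or KU63794 replicate 1 (0.0738) or 3 (0.0643). BCAT1, BCAT5 and BCAT6 differed by -0.12 to 0.13.

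Among the 5 relatives of BAT5 tested, BASS6 (AT4G22840), a plastid glycolate transporter of photorespiration, was the 1 called against mock. Of all genes, 14.4%, 11.1% and 9.87% were called higher with AZD8055, KU63794 and TORIN1. BASS6 had 8.06, 7.8 and 7.56 CPM in AZD8055 libraries, 6.64, 7.37 and 5.88 in KU63794 libraries and 8.06, 6 and 6.17 in TORIN1 libraries, against 4.31, 3.33 and 3.26 in mock, and rose by 1.08, 0.85 and 0.87 (SE 0.18 each; edgeR adjusted p = 0.000429, 0.00317 and 0.00421). BASS1, BASS2, BASS3 and BASS4 differed by -0.18 to 0.17. Of 5 genes of methionine synthesis and breakdown, CGS1, the committing enzyme of methionine synthesis, rose by 0.55 (log2) under AZD8055 (SE 0.11; 0.00141) and 0.39 with TORIN1 (SE 0.11; 0.0185) and differed by 0.30 with KU63794 (0.0531). The KU63794 difference passed without KU63794 replicate 2 (0.37; 0.0333) and with DESeq2 size factors (0.0397), a filter of 1 CPM (0.0483), DESeq2 (0.00572), limma voom (0.0418) or only the 2 groups (0.025), and the TORIN1 call was lost without mock replicate 1 (0.0601) or 2 (0.0731) or TORIN1 replicate 2 (0.0604) or 3 (0.0599). MS2, a methionine synthase, rose by 0.73 with AZD8055 (SE 0.14; 0.00161) and 0.66 with TORIN1 (SE 0.14; 0.00513) and differed by 0.27 with KU63794 (0.199). MS3, a related synthase, fell by 0.49 with AZD8055 (SE 0.14; 0.0166) and 0.54 with KU63794 (SE 0.14; 0.0106) and differed by -0.35 with TORIN1 (0.0994). These MS3 calls were lost without mock replicate 1 (0.0755 with AZD8055, 0.0545 with KU63794), and the AZD8055 call also without AZD8055 replicate 1 (0.0605) or 2 (0.0568). The other 2 genes of that list, MS1 and MGL, passed with no inhibitor.

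Of 8 tested genes of indole glucosinolates, a class made from tryptophan without chain elongation, 5, 3 and 4 rose with AZD8055, KU63794 and TORIN1 (14.4%, 11.1% and 9.87% of all genes), the KU63794 count being 0 without mock replicate 1 or 2 and 1 without KU63794 replicate 3.

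CYP83B1 (AT4G31500), which oxidises indole aldoximes, rose by 0.93, 0.50 and 0.88 with AZD8055, KU63794 and TORIN1 (SE 0.15 each; edgeR adjusted p = 0.000334, 0.0249 and 0.00116), and its KU63794 call was lost without mock replicate 1 (0.107) or 2 (0.0806) or KU63794 replicate 1 (0.0558) or 3 (0.113). GSTF10 (AT2G30870), a glutathione transferase, rose by 0.70, 0.69 and 0.89 (SE 0.19 each; 0.0154, 0.0196 and 0.00635). Its AZD8055 call was lost without mock replicate 1 (0.0528) or 2 (0.0574) or AZD8055 replicate 3 (0.0651), and its KU63794 call without any 1 library other than mock replicate 3 and KU63794 replicate 1 (0.0513 to 0.0703).

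The authors' deposited tables, which list genes with a log2 fold change of mock over inhibitor and an adjusted p, hold 8 of the 10 genes for AZD8055, 4 for KU63794 and 7 for TORIN1. In the authors' deposited tables the values, negative where the inhibitor is higher, were -1.28 for IPMDH1 with AZD8055, -0.84 for it with KU63794, -0.96 for it with TORIN1 and -1.35 for IPMI2 with AZD8055. MAM1 is listed with KU63794 in the authors' deposited table (-0.72; adjusted p = 0.00569), where the test above gave 0.0601. IPMI1 and MYB28 are listed for none of the 3 inhibitors.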

How the data were processed

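PolyA RNA-seq counts of 12 shoot libraries (4 groups of 3) were used as the authors deposited them: whole-number counts per gene, with no scaling. Per the submitters' processing notes, TAIR10 was the genome, and DESeq2 1.18.1 and StringTie 1.3.3 were among the tools. Which aligner was used, whether counting used strand and how shared reads were split is not stated there or in the labels. Log2 fold changes and adjusted p-values of listed genes stand in the authors' deposited tables; their sign was checked against the counts and runs as mock over inhibitor for 100% of listed genes. The authors also deposited normalized counts, which were not used.

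Counts were tested with edgeR 4.0.16 (R 4.3.3): TMM scaling, the default low-count filter by group, 1 coefficient per group over all 12 libraries, robust quasi-likelihood F-tests, two-sided, adjusted by Benjamini-Hochberg over 17933 genes within each comparison, called below 0.05. The SE is the log2 fold change over the square root of F, and the 95% intervals use the degrees of freedom of the fit. Levels per kb divide CPM by the union of annotated exons. Log2 CPM used a prior count of 2. Shares of families divide counts by exon length first. Depth was 7706957 to 14696645 counts per library. No library was a copy of another of its group (chi-square per degree of freedom of 3.59 to 20.2). The test was tried before use on simulated counts of AZD8055 against mock, with the same spread set for every gene. There edgeR recovered 16.4% of 1.5-fold changes, 80.6% of 2-fold changes and 100% of 4-fold changes. Most changes of 1.5-fold thus went uncalled in that setting.

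The 10 genes and the other lists (core structure and side chain, regulators, leucine counterparts, aminotransferases, BASS carriers, methionine, indole and cell-type markers) were chosen with earlier results of these data known. All 10 genes are named. From each other list the genes called with all 3 inhibitors in 1 direction were named, at most 4 by their smallest change, with MYB29, MYB76, IPMS1, IPMS2, BCAT2, CYP79F1, CYP83A1, SDI1 and SDI2 whatever their values, and the 5 genes of nearest profile among those with a mean of at least 1 CPM. The leaf marker GLDP1 also met the rule. MYC3, CGS1, MS2, MS3, RBCS2B, LHCB1.1 and other genes given outside this rule were chosen after their values were seen.

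Alternatives were DESeq2 size factors, other filters, DESeq2 1.42.0, limma 3.58.1 voom, fits on 2 groups, a replicate block, each library left out, and summed gene pairs. The list counts with a library left out, and the alternatives for genes outside the rule, were added after seeing the data. Coordinates and promoters come from the RefSeq TAIR10.1 genome and annotation, while the count files hold no coordinates. Plots used matplotlib 3.10.9 under Python 3.11.15.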

Additional observations from a re-analysis of the deposited data

How the results depend on the processing

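Counts of the 10 genes called higher against mock were 7 to 9 with AZD8055, 2 to 4 with KU63794 and 7 with TORIN1 under the other scaling, filters, tools and fits, and 6 to 8, 2 to 4 and 4 to 5 with 1 library left out. Against TORIN1, the 1 gene higher with AZD8055 became 0 with limma voom, the replicate block or only 2 groups fitted, and 0 to 1 with a library left out. The 1 gene higher with TORIN1 than with KU63794 became 0 with DESeq2 size factors, no low-count filter, limma voom, the replicate block or 2 groups, and 0 to 1 with a library left out. For these the cause was not tested.

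Differences that changed sign were all uncalled. MAM3 with AZD8055 over TORIN1 was -0.01, and 0.01 with DESeq2 size factors, DESeq2, the replicate block or 2 groups, 0.03 with voom and 0.24 summed with MAM1. With KU63794, voom gave MYB28 -0.01 and MYB29 -0.08. With a library left out, ranges crossed 0 for MAM3 (-0.18 to 0.27) and BAT5 (-0.06 to 0.29) with AZD8055 over TORIN1 and for IPMI1 with AZD8055 over KU63794 (-0.23 to 0.76). They crossed 0 with TORIN1 over KU63794 for BCAT4 (-0.19 to 0.26), MAM1 (-0.06 to 0.43), IPMDH1 (-0.07 to 0.29), MYB28 (-0.13 to 0.39) and MAM3 (-0.08 to 0.36), against mock with KU63794 for BCAT3 (-0.12 to 0.07), MYB28 (-0.18 to 0.34) and MYB29 (-0.22 to 0.39), with AZD8055 for LHCB1.1 (-0.02 to 0.19), and with TORIN1 for IPMI2 (-0.11 to 0.66), IPMS1 (-0.1 to 0.01) and SOT17 (-0.14 to 0.91).

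Replicate numbers share no stated source: of 18 same-numbered pairs of libraries, 3 had deviations correlated above 0.1 (range -0.268 to 0.228). The block lost the AZD8055 call of BCAT3 (adjusted p = 0.0541), passed MAM1 with KU63794 (0.81; 0.041), CGS1 with KU63794 (0.0432), PIN2 with AZD8055 (-1.23; 0.0102) and SDI1 with AZD8055 (-0.69; 0.0287) and TORIN1 (0.71; 0.0248), lost CASP1 with TORIN1 (0.0568), and gave 37 higher and 119 lower among all genes for AZD8055 over TORIN1, against 89 and 234. Over all genes, TORIN1 over KU63794 gave 397 higher and 108 lower, with 130 to 765 and 28 to 322 under the other settings, 17 and 9 without KU63794 replicate 2, and down to 1 and 1 with another library left out. AZD8055 over TORIN1 gave 5 to 171 higher and 6 to 403 lower, and AZD8055 over KU63794 0 to 13 higher and 0 to 3 lower. TORIN1 against mock gave 1770 higher and 1844 lower, and 1076 to 1583 and 1112 to 1569 with a library left out. IPMI1 and IPMI2 rest on 0 to 95 counts per library, and what keeps their counts low was not tested.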

Other observations

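In the authors' deposited table of mean changes over the inhibitors, the mean divides by 3 also where a gene is listed for only 2 of them: this held within 1e-06 for 1891 of 1891 such genes, as it did for 2507 of 2507 genes listed for all 3. BAT5 is therefore given as 0.54 in the authors' deposited table, where the mean of its 2 listed values is 0.81, and IIL1 as 0.25 in place of 0.38 and BCAT3 as 0.23 in place of 0.34.

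Single-exon protein-coding genes had a median of 0.119 CPM over the 12 libraries (5059 genes, the highest at 482 CPM), against 7.57 CPM for genes with more exons (21653 genes, the highest at 25400 CPM). Besides IPMI1 and IPMI2, single-exon genes of the lists are the sulfotransferases SOT16, SOT17 and SOT18, which complete the core structure, and the regulators MYC2, MYC3 and MYC4. The markers LHCB1.1, LRX1 and SESA1 also have a single exon. Under AZD8055 against mock, SOT16 rose by 1.29 (SE 0.34; edgeR adjusted p = 0.0107) and SOT18 by 1.75 (SE 0.55; 0.0262), and SOT17 differed by 1.06 (SE 0.52; 0.14). With KU63794 and TORIN1 none of them passed: SOT16 differed by 0.61 and 0.34 (0.233 and 0.569), SOT17 by 0.73 and 0.41 (0.347 and 0.657) and SOT18 by 0.98 and 1.06 (0.236 and 0.224). The SOT18 call with AZD8055 was lost without mock replicate 2 (0.0713) or AZD8055 replicate 3 (0.0744). These genes are named here after their values were seen. AOP3, of side-chain modification, had 0 counts in all 12 libraries.

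Seed storage genes varied between libraries of the same group, with sums of 0 to 149 CPM with AZD8055, 1.02 to 192 with KU63794, 0.686 to 165 with TORIN1 and 35.2 to 62.4 in mock, and none of the 4 tested was called against mock by edgeR, DESeq2 or limma voom (0 at an unadjusted edgeR p below 0.05).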
